A study of Saccharomyces cerevisiae BY4741 with 8 samples.

Results

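The monocarboxylate transporter homologues of *Saccharomyces cerevisiae* are 6 genes of the 5782 in the files: *MCH1* (YDL054C), *MCH2* (YKL221W), *MCH4* (YOL119C), *MCH5* (YOR306C), *ESBP6* (YNL125C, also called *MCH3*) and *JEN1* (YKL217W). The set was chosen by the rise of *MCH2* with vanillin, which exceeded that of any other gene called at the study's limits (a fold change from 2 upward together with an FDR up to 0.001), and the other 5, its relatives, were added by name and not by their values. The values of *MCH2* with and without vanillin are therefore no finding, and they are given as a description with no test. The question was whether any relative followed *MCH2*. All 6 genes passed the filter on low counts and were among the 5506 genes tested.

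Poly(A) RNA was sequenced from the laboratory strain BY4741, a *MATa* haploid which the methods give as *his3Δ1 leu2Δ met5Δ ura3Δ*, and from BY4741(*yrr1*Δ), in which a *KanMX* cassette replaced *YRR1*. *YRR1* encodes a zinc finger transcription factor that activates multidrug resistance genes. Each strain was grown at 30 °C in SD, a synthetic complete medium with 20 g/L glucose, or in SD with 5 mM vanillin, a phenolic aldehyde that forms when lignocellulose is broken down. Cultures started at an OD600 of 0.2 and were harvested in log phase at 1.6 to 2.0, and each of the 4 conditions had 2 biological replicates. The p-values below thus compare a difference with a spread estimated from duplicates, in the main model over all 4 conditions together. The labels of the deletion strain hold in the libraries: *YRR1* had 73 to 100 counts in the 4 BY4741 libraries and 0 to 2 in the 4 libraries of BY4741(*yrr1*Δ). Of the genes that mark BY4741, *LEU2* and *URA3* had at most 2 counts and *MET17* at most 9 in each library. *MET17*, also called *MET15*, is the gene that the usual description of BY4741 gives as deleted, where the methods write *met5Δ*. *HIS3*, of which the *his3Δ1* allele removes a part, had 51 to 181 counts. The libraries held 2195324 to 2453837 expected counts (estimated reads per gene), and CPM below are counts relative to the TMM-scaled library total.

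Monocarboxylate transporters move lactate, pyruvate and other acids with 1 carboxyl group across membranes, in mammals mostly together with a proton. In yeast that work is done by Jen1p, a lactate and pyruvate proton symporter of the plasma membrane from a different transporter family, whose gene is repressed by glucose. The Mch proteins resemble the mammalian carriers in sequence, but yeast lacking them take up monocarboxylates normally. Mch5p imports riboflavin, and its gene is activated by Put3p, the regulator of proline use. The substrates of Mch1p, Mch2p, Mch4p and Esbp6p are not established.

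In the R64 reference all 6 genes have 1 exon. *MCH2* lies at the left end of chromosome XI (chrXI:6107-7528, plus strand), 6106 bases from the end of the sequence, and *JEN1* lies on the same arm (chrXI:22234-24084, plus strand). The other members are on the minus strand: *MCH1* at chrIV:359825-361285, *MCH4* at chrXV:94856-96361, *MCH5* at chrXV:889867-891432 and *ESBP6* at chrXIV:390146-392167. The proteins run from 473 residues for Mch2p to 673 for Esbp6p. In pairwise global alignments, with no penalty for end gaps, Mch4p and Mch5p were the closest pair, with 45.6% identical residues over 482 aligned positions. Mch2p was closest to Esbp6p, with 32.9% over 462 positions, and the other 13 pairs had 25.4% to 30.0%. No stretch of 50 bases of any member occurred elsewhere in the genome, so reads of that length could not be shared between members.

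*MCH2* and the gene on its left, YKL222C, a putative zinc finger transcription factor, are transcribed away from each other, with 486 bases between their start codons. The middle 300 bases of that span (chrXI:5714-6013 of R64, plus strand, the strand of *MCH2*) are shown because both flanking genes rose with vanillin, as described below.

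YKL222C-MCH2 span: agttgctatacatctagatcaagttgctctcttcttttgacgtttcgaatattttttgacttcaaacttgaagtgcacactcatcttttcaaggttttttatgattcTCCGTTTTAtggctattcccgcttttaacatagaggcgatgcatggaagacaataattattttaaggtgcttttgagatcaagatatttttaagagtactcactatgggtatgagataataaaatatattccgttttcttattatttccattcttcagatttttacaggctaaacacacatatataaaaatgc

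The capitals mark the only match in the 486 bases to the consensus known for Yrr1p, which is A or T, then CCG, then C or T, then 2 bases that are G or T and 2 that are A or T. The match, TCCGTTTTA, starts 286 bases before the start codon of *MCH2* (chrXI:5821-5829). Short degenerate words of this kind are common: with both strands searched, 16.2% of 6000 genes had a match in the 500 bases before the start codon. Among the 6 homologues *MCH2* and *MCH5* had one, and the match before *MCH5* starts 357 bases upstream.

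Other words were searched in the same windows on both strands. None of the 6 genes had the element of Pdr1p and Pdr3p (TCCGCGGA or TCCGTGGA, in 1.67% of genes) or that of Yap1p (TTACTAA, in 11.8%). The Put3p word CGGNNNNNNNNNNCCG was present before *ESBP6* alone, against 2.65% of genes. The stress response element AGGGG was present before *JEN1* alone, against 34.1%. The core word of Mig1p (C or G, then C or T, then GGGG, in 22.7% of genes), the repressor that acts in glucose, were present before *MCH1* and *ESBP6*. These matches describe letters and not binding.

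*MCH2* was nearly silent in SD and abundant with vanillin. It had 10 and 13 counts in the BY4741 replicates in SD, 4.32 and 5.63 CPM, and 15 and 12 counts in BY4741(*yrr1*Δ), 7.22 and 5.05 CPM. In the presence of 5 mM vanillin it had 448 and 669 counts in BY4741, 211 and 312 CPM, and 2024 and 1274 counts in BY4741(*yrr1*Δ), 807 and 498 CPM. The libraries with vanillin were far above those in SD, and the vanillin libraries of the deletion strain were both above those of BY4741.

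The rise of *MCH2* was 52.1-fold in BY4741 (log2 fold change 5.70, SE 0.38) and 106-fold in BY4741(*yrr1*Δ) (6.73, SE 0.39). It ranked 2 by log2 fold change in each strain. The gene above it in BY4741, YIL177C, was higher by 6.51 with an SE of 3.06, and the one in BY4741(*yrr1*Δ), YLR410W-A, by 6.88 with an SE of 1.12, and neither was called at the study's limits. Since the level in SD rests on 10 to 15 counts per library, the size of the fold is less certain than its direction.

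Per length of transcript, *MCH2* moved from the lowest of the homologues to the highest. Its mean level in SD was 3.95 FPKM (fragments scaled to transcript length and library size) in BY4741 and 4.59 in BY4741(*yrr1*Δ), higher than only 4.45% and 4.72% of the genes in the files. With vanillin the means were 192 and 534 FPKM, higher than 83.0% and 94.2% of the genes. Its share of the summed FPKM of the 6 homologues was 1.90% to 2.63% in the 4 SD libraries. With vanillin the share was 40.4% and 46.0% in the BY4741 replicates and 72.0% and 68.2% in those of BY4741(*yrr1*Δ).

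**Figure D1:**
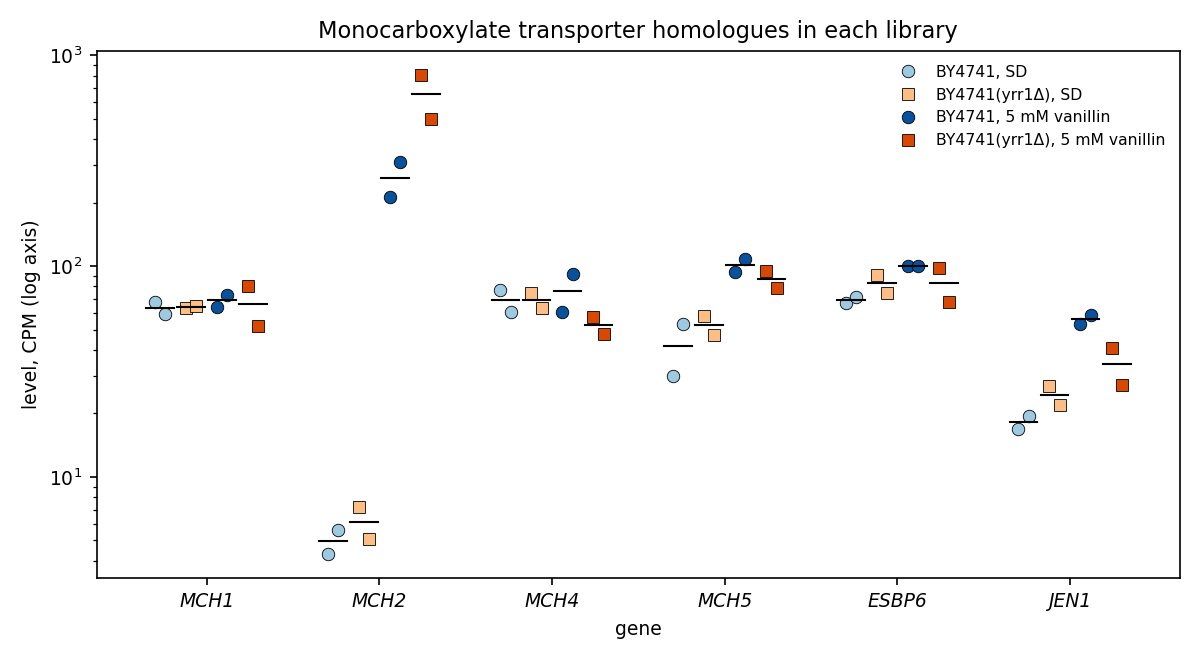
Level of each homologue in each of the 8 libraries, in CPM on a log axis, with 1 point per library and a bar at the mean of the 2 replicates. The *MCH2* libraries with vanillin sit between 211 and 807 CPM and those in SD between 4.32 and 7.22, while all levels of the 5 relatives lie between 16.8 and 108 CPM.

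Of the 5 relatives, *JEN1* and *MCH5* rose with vanillin in BY4741. They were 2 of 5 called at an FDR of at most 0.05 by edgeR's quasi-likelihood test, where 3.14% of all genes tested were called and 2.32% were called and higher. *JEN1* is counted here because the set names it, although Jen1p is from a different transporter family than the Mch proteins. At the study's limits no relative was called, against 0.182% of all genes. An unadjusted p under 0.05 was found for 3 of 5 relatives and for 18.3% of all genes. DESeq2 also called these 2 relatives at an FDR of 0.05, where it called 5.27% of all genes. It called 1 of them at the study's limits, but the share of all genes it called there was not counted. The median log2 fold change of the 5 relatives was 0.54, beside -0.02 for all genes.

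*JEN1* had the larger rise. It had 39 and 45 counts in BY4741 in SD, 16.8 and 19.5 CPM, and 113 and 126 counts with vanillin, 53.3 and 58.7 CPM. The counts in BY4741(*yrr1*Δ) were 56 and 52 in SD, 26.9 and 21.9 CPM, and 103 and 70 with vanillin, 41.1 and 27.4 CPM. In both strains the vanillin libraries were above the SD libraries, but the gap in the deletion strain was narrow. *JEN1* rose 3.08-fold in BY4741 (log2 fold change 1.62, SE 0.26, FDR = 0.0116, edgeR). Its log2 fold change of 0.49 in BY4741(*yrr1*Δ) (SE 0.26, FDR = 0.237, edgeR) did not pass the test.

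The difference between these 2 responses of *JEN1* was tested as the interaction of strain and vanillin, which was -1.13 (SE 0.36, FDR = 0.151, edgeR, unadjusted p = 0.0124). It did not pass the test, so the strains were not shown to differ in this response. With vanillin both libraries of BY4741(*yrr1*Δ) were below both of BY4741, with a log2 fold change of -0.71 (SE 0.24, FDR = 0.148, edgeR). In SD the order was the opposite, with both libraries of the deletion strain above both of BY4741 (0.42, SE 0.27, FDR = 1.0, edgeR).

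*MCH5*, the riboflavin importer, had 70 and 123 counts in BY4741 in SD, 30.2 and 53.3 CPM, and 199 and 232 counts with vanillin, 93.9 and 108 CPM. In BY4741(*yrr1*Δ) it had 121 and 112 counts in SD, 58.2 and 47.2 CPM, and 237 and 200 with vanillin, 94.5 and 78.3 CPM. The vanillin libraries were above the SD libraries in both strains, and the low first replicate of BY4741 in SD stood apart from the other 3 SD libraries. *MCH5* rose 2.42-fold in BY4741 (log2 fold change 1.27, SE 0.27, FDR = 0.0434, edgeR). The log2 fold change in BY4741(*yrr1*Δ) was 0.71 (SE 0.27, FDR = 0.123, edgeR), and the interaction was -0.56 (SE 0.38, FDR = 0.438, edgeR).

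Neither call was kept in all fits with 1 library left out. A call lost in such a fit does not by itself show that it rested on that library. Leaving out a library gives a condition of 1 sample, whose spread is then taken from the other conditions, and without 1 of the BY4741 libraries only 32 to 73 genes in all were called, in place of 173. The call of *JEN1* was lost without any 1 of the 4 BY4741 libraries, with FDRs of 0.0999 and 0.0646 without replicate 1 or 2 in SD and 0.0737 and 0.118 without replicate 1 or 2 with vanillin. Its log2 fold change moved little, from 1.49 to 1.73. The log2 fold change of *MCH5* was 0.89 without replicate 1 of BY4741 in SD (FDR = 0.173, edgeR) and 1.74 without replicate 2 (FDR = 0.0304, edgeR). Its call was also lost without replicate 1 or 2 of BY4741 with vanillin (log2 fold change 1.37 and 1.17, FDR = 0.154 and 0.303, edgeR). Without replicate 1 or 2 of BY4741(*yrr1*Δ) with vanillin it stayed at 1.27 (FDR = 0.0587 and 0.0597, edgeR).

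**Figure D2:**
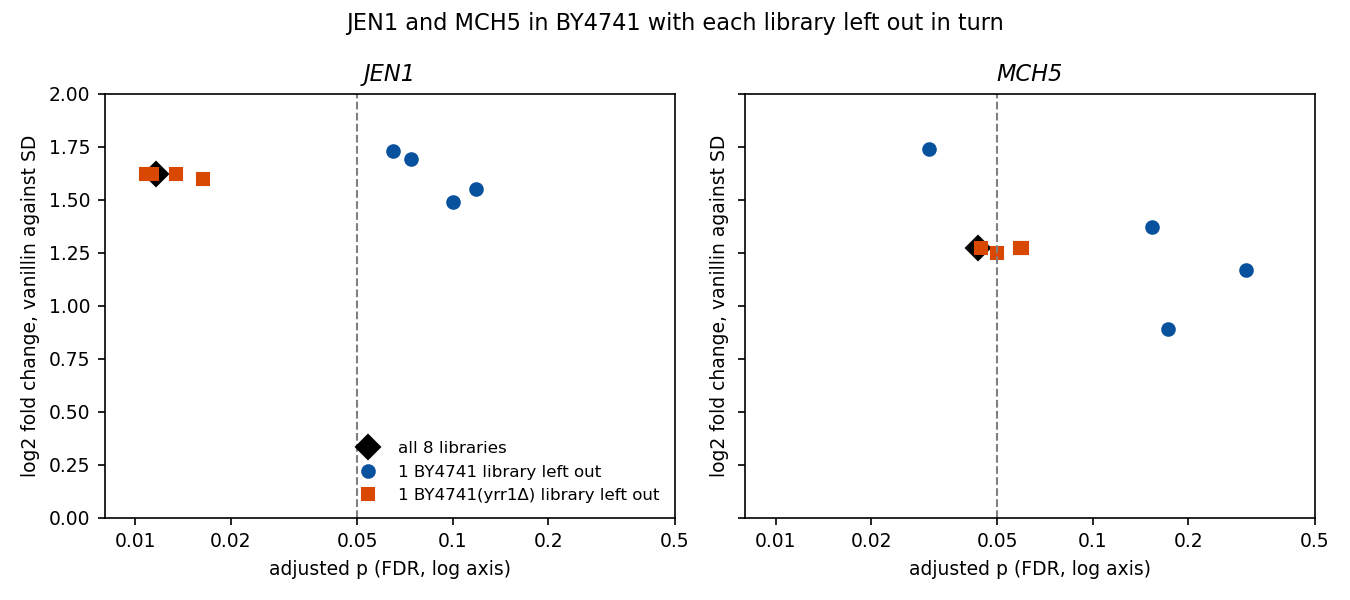
Log2 fold change of *JEN1* and *MCH5* with vanillin in BY4741 against its FDR (log axis), with all 8 libraries and with each left out in turn, and a dashed line at an FDR of 0.05. *JEN1* stays between 1.49 and 1.73 but crosses the line when a BY4741 library is left out, while *MCH5* moves between 0.89 and 1.74.

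*ESBP6*, whose protein is closest to Mch2p, had 155 and 164 counts in BY4741 in SD, 66.9 and 71.0 CPM, and 213 and 215 with vanillin, both at 100 CPM. The deletion strain had 189 and 177 counts in SD, 90.9 and 74.5 CPM, and 245 and 173 with vanillin, 97.7 and 67.7 CPM. The vanillin libraries were above the SD libraries in BY4741 alone, and in the deletion strain the groups overlapped. The log2 fold changes were 0.54 in BY4741 (SE 0.22, FDR = 0.231, edgeR) and 0.00 in BY4741(*yrr1*Δ) (SE 0.22, FDR = 0.999, edgeR), with an interaction of -0.54 (SE 0.31, FDR = 0.345, edgeR).

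*MCH4*, the closest relative of *MCH5*, had 178 and 140 counts in BY4741 in SD, 76.9 and 60.6 CPM, and 128 and 196 with vanillin, 60.4 and 91.4 CPM. In BY4741(*yrr1*Δ) it had 155 and 150 counts in SD, 74.6 and 63.2 CPM, and 144 and 122 with vanillin, 57.4 and 47.7 CPM. The groups overlapped in BY4741, and in the deletion strain the vanillin libraries were just below the SD libraries. The log2 fold changes were 0.14 (SE 0.25, FDR = 0.793, edgeR) and -0.39 (SE 0.25, FDR = 0.335, edgeR), so *MCH4* gave no call where *MCH5* did in BY4741.

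*MCH1*, a gene of unknown substrate, had 157 and 137 counts in BY4741 in SD, 67.8 and 59.3 CPM, and 136 and 157 with vanillin, 64.2 and 73.2 CPM. The deletion strain had 132 and 154 counts in SD, 63.5 and 64.9 CPM, and 202 and 133 with vanillin, 80.6 and 52.0 CPM. The groups overlapped in both strains, and the log2 fold changes with vanillin were 0.11 (SE 0.23, FDR = 0.826, edgeR) and 0.05 (SE 0.23, FDR = 0.916, edgeR).

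In BY4741(*yrr1*Δ) none of the 5 relatives was called by edgeR's test or by DESeq2, although 11.2% of all genes were called at an FDR of 0.05. The unadjusted p was under 0.05 for *MCH5* alone, against 29.0% of all genes. At the study's limits 0.272% of all genes and no relative were called. The median log2 fold change of the relatives was 0.05, beside 0.01 for all genes. The log2 fold changes of the relatives in that strain had SEs of 0.22 to 0.27.

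**Figure D3:**
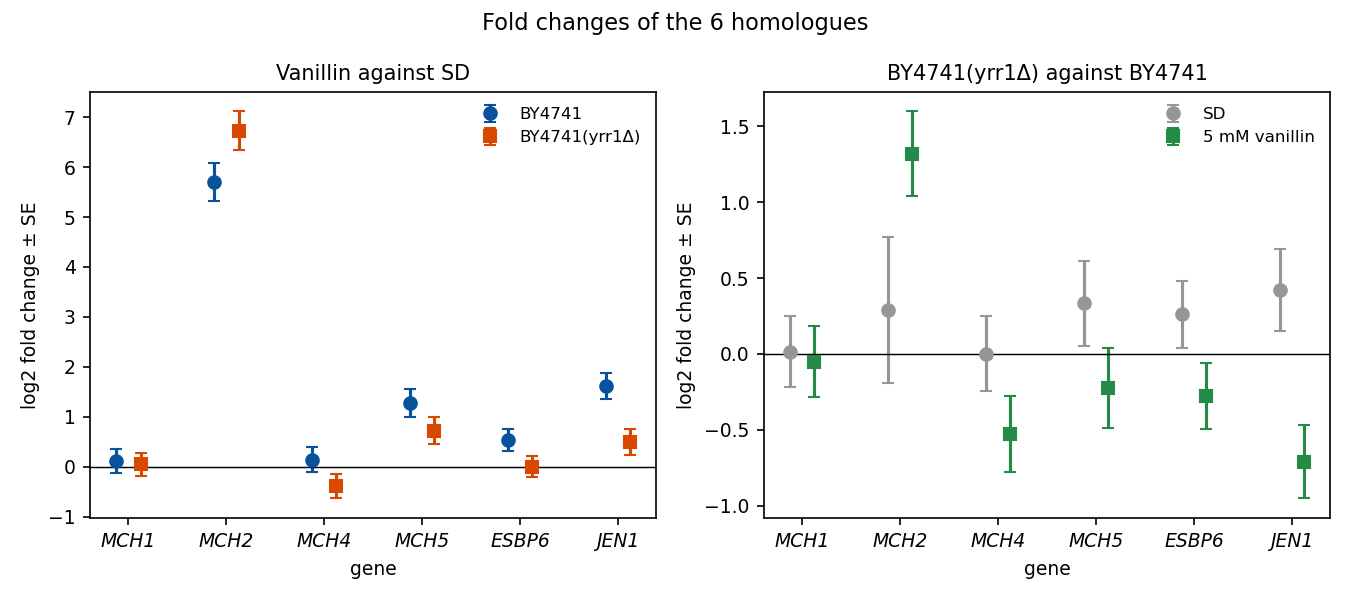
Log2 fold change of each homologue with its SE, for vanillin against SD in each strain (left) and for BY4741(*yrr1*Δ) against BY4741 in each medium (right). With vanillin *MCH2* stands at 5.70 and 6.73 while the relatives lie between -0.39 and 1.62, and between the strains the largest value is the 1.32 of *MCH2* with vanillin.

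Between the strains in SD none of the 5 relatives was called, had an unadjusted p under 0.05 or was called by DESeq2. The background was as low: 0.0182% of all genes were called at an FDR of 0.05, which was *YRR1* itself, and 0% at the study's limits. *MCH2*, again given with no test, differed by a log2 fold change of 0.29 (SE 0.48), and its libraries in the 2 strains overlapped. The median of the 5 relatives was 0.26, beside -0.01 for all genes.

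With vanillin *MCH2* was 2.50-fold higher in BY4741(*yrr1*Δ) than in BY4741 (log2 fold change 1.32, SE 0.28). Both groups of this contrast are libraries by which *MCH2* was chosen, so the value is a description, given with no test, and no independent evidence. None of the 5 relatives was called by edgeR in this comparison, where 0.618% of all genes were called at an FDR of 0.05 and 0% at the study's limits. By edgeR 1 of the 5, *JEN1*, had an unadjusted p under 0.05, against 22.9% of all genes. DESeq2 called none of the 5, and 4.72% of all genes. Left out in turn, the libraries gave values from 0.93 to 1.63 for *MCH2*.

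The log2 fold changes of all 5 relatives between the strains with vanillin were below 0, opposite in sign to that of *MCH2*, with a median of -0.28 beside -0.01 for all genes. *MCH4* was at -0.53 (SE 0.25, FDR = 0.245, edgeR), *ESBP6* at -0.28, *MCH5* at -0.23 and *MCH1* at -0.05. That of *MCH1* turned positive, to 0.10, when only library size was scaled, and none of the 5 passed the test. The interaction of strain and vanillin was 1.03 for *MCH2* (SE 0.56), which is the difference of the 2 rises that chose it and is given with no test, and had a median of -0.54 over the 5 relatives. No relative was called for the interaction by either tool, 1 of the 5 had an unadjusted p under 0.05, against 20.5% of all genes, and the background of edgeR's calls was 0.0908% of all genes at an FDR of 0.05 and 0% at the study's limits.

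Per length of transcript the homologues kept a similar order in SD in both strains. From lowest to highest the mean levels in BY4741 in SD were 3.95 FPKM for *MCH2*, 10.8 for *JEN1*, 29.7 for *MCH5*, 37.4 for *ESBP6*, 49.1 for *MCH1* and 51.4 for *MCH4*. The replicates of *MCH5* and *ESBP6* overlapped there, as did those of *MCH1* and *MCH4*. In the presence of vanillin *JEN1* was the lowest in both strains, at 30.9 FPKM in BY4741 and 21.0 in BY4741(*yrr1*Δ). *MCH5* was second only to *MCH2*, at 66.8 and 63.9 FPKM, although its replicates overlapped those of *MCH1* in the deletion strain. The 5 relatives together summed to 176 to 189 FPKM in the 4 SD libraries and to 199 to 266 with vanillin.

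The genes beside *MCH2* were examined because it lies near a chromosome end. YKL222C, divergent from it, had 59 and 55 counts in BY4741 in SD, 25.5 and 23.8 CPM, and 122 and 156 with vanillin, 57.6 and 72.7 CPM. In BY4741(*yrr1*Δ) it had 44 and 57 counts in SD, 21.2 and 24.0 CPM, and 329 and 306 with vanillin, 131 and 120 CPM. No library overlapped between media, and the vanillin libraries of the deletion strain were above those of BY4741, the same order as for *MCH2*.

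YKL222C rose 2.64-fold in BY4741 (log2 fold change 1.40, SE 0.21, FDR = 0.00842, edgeR) and 5.54-fold in BY4741(*yrr1*Δ) (2.47, SE 0.21, FDR = 0.00049, edgeR). The second value passed the study's limits as well. The call in BY4741 was lost without replicate 1 or 2 in SD (log2 fold change 1.42 and 1.35, FDR = 0.0722 and 0.0706, edgeR) or replicate 2 with vanillin (1.22, FDR = 0.104, edgeR), with the log2 fold change little moved. Between the strains with vanillin it was higher in the deletion strain by 0.95 (SE 0.19, FDR = 0.0686, edgeR), and the interaction was 1.07 (SE 0.29, FDR = 0.128, edgeR), neither of which passed the test.

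On the other side of *MCH2*, *FRE2*, a ferric reductase gene, had log2 fold changes of 1.14 in BY4741 (SE 0.32, FDR = 0.0943, edgeR) and -0.08 in BY4741(*yrr1*Δ), and *COS9* had -0.04 and -0.19. The next gene to the left of YKL222C, *PAU16*, was not analysed here. Beside *JEN1*, *SRY1* had log2 fold changes of -0.42 and -0.58, neither called, and *OXP1* had -0.10 and -0.14. *URA1*, the dihydroorotate dehydrogenase gene of pyrimidine synthesis, rose in BY4741(*yrr1*Δ) by 1.99 (SE 0.24, FDR = 0.00287, edgeR) and was at 0.43 in BY4741 (SE 0.23, FDR = 0.366, edgeR). Its counts were 975 and 690 in BY4741 in SD, 864 and 1199 with vanillin, 516 and 656 in BY4741(*yrr1*Δ) in SD, and 2935 and 2345 with vanillin. The interaction for *URA1* was 1.57 (SE 0.33, FDR = 0.101, edgeR). Values differed among the genes of this stretch, and an effect of position was not tested. *JEN1* and *URA1* were called in different strains, and neither interaction passed the test.

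**Figure D4:**
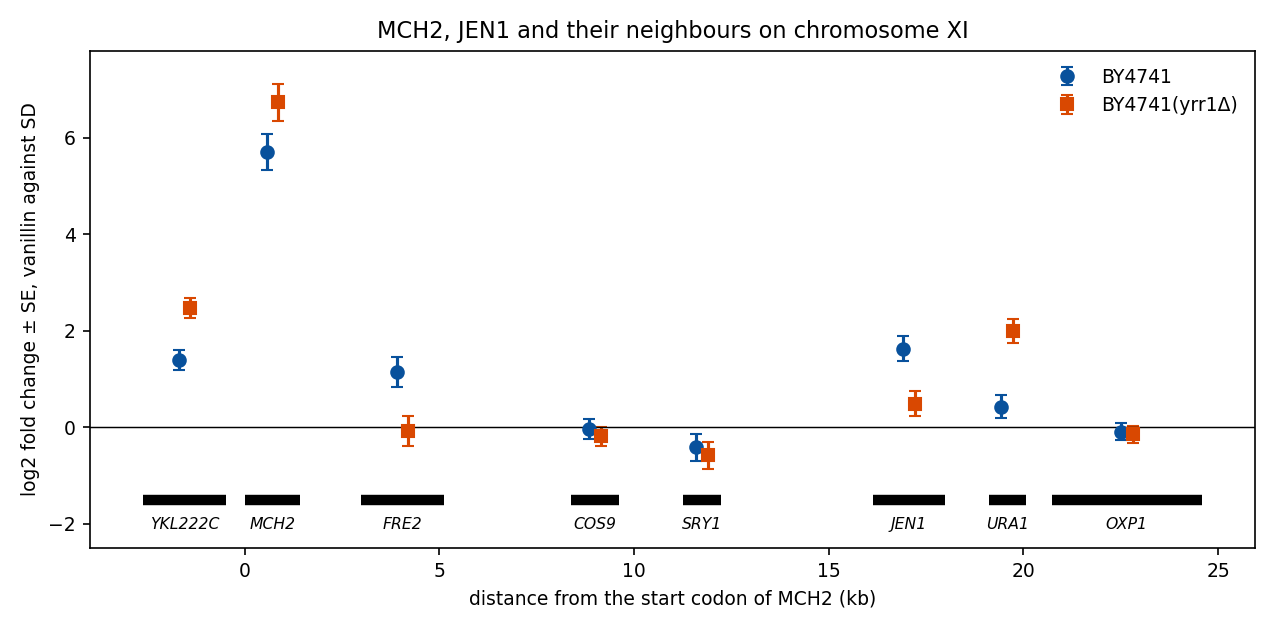
Log2 fold change with vanillin, with its SE, of *MCH2*, *JEN1* and the genes beside them, against distance from the start codon of *MCH2* in kb, with black bars for the coding regions. YKL222C, on the other side of the shared 486 bases, stands at 1.40 and 2.47, and *COS9* and *SRY1*, between *MCH2* and *JEN1*, lie below 0.

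The genes whose levels over the 8 libraries were most like those of *MCH2* were *ADH7*, *AQY2* and *INO1*, by the root mean square (RMS) difference of log2 CPM after each gene was centred on its mean. The RMS differences were 1.16 for *ADH7*, an NADPH-dependent alcohol dehydrogenase gene, 1.49 for *AQY2*, an aquaporin gene, and 1.51 for *INO1*, which encodes inositol phosphate synthase. The median over all genes was 3.06, so the nearest gene still differed from *MCH2* by more than 1 log2 unit. *ADH7* had log2 fold changes with vanillin of 3.10 (BY4741) and 5.26 in BY4741(*yrr1*Δ), the same order of strains as *MCH2*. *AQY2* (4.51 and 3.46) and *INO1* (4.65 and 2.85) had the opposite order.

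The nearest genes to *MCH5* were *PLB2*, a phospholipase B gene (RMS difference 0.158), *NRT1*, which encodes a nicotinamide riboside transporter (0.159), and *FAS2*, a fatty acid synthase subunit gene (0.175), against a median of 0.641 over all genes. Those nearest to *JEN1* were YLR179C (0.152), *YET2* (0.155) and *TOP3* (0.163), against a median of 0.675. No other homologue was among the 3 genes nearest to *MCH2*, *MCH5* or *JEN1*. Levels were centred but not scaled, so a gene with a much smaller change than *MCH2* could not be near it. For *MCH2* the list therefore does not tell whether a relative had a like pattern of smaller size.

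Among other carriers of small carboxylic acids *PDR12* rose and *AQR1* fell in each strain. Of 15 such genes 14 were tested, and edgeR called these 2 alone, beside 3.14% of all genes for BY4741 and 11.2% for the deletion strain. The unadjusted p was under 0.05 for 6 of the 14 in BY4741, against 18.3% of all genes. In the deletion strain it was for 3, against 29.0%. In the deletion strain DESeq2 called 3 of the list, of which the added gene was *DIC1*, the mitochondrial dicarboxylate carrier gene, and 659 genes in all. *PDR12*, the ABC transporter that exports weak organic acid anions, had 63.5 and 105 CPM in BY4741 in SD and 185 and 236 with vanillin, and 68.8 and 75.0 CPM in BY4741(*yrr1*Δ) in SD and 378 and 544 with vanillin. Its log2 fold changes were 1.32 (SE 0.28, FDR = 0.0434, edgeR) and 2.68 (SE 0.29, FDR = 0.00209, edgeR). *AQR1*, a plasma membrane transporter gene for resistance to short monocarboxylic acids, had 344 and 494 CPM in BY4741 in SD and 76.0 and 98.4 with vanillin. The deletion strain had 396 and 292 CPM in SD and, with vanillin, 176 and 184. It fell by 2.26 on the log2 scale in BY4741 (SE 0.25, FDR = 0.00332, edgeR) and by 0.94 in BY4741(*yrr1*Δ) (SE 0.24, FDR = 0.0400, edgeR). The calls of *PDR12* in BY4741 and of *AQR1* in BY4741(*yrr1*Δ) were each kept in 5 of 9 other settings. The medians of the 14 genes in BY4741 and BY4741(*yrr1*Δ) were 0.16 and 0.05, beside -0.02 and 0.01 for all genes.

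Genes for lactate and other nonfermentable carbon, which *JEN1* serves, moved in both directions. With vanillin 10 of the 14 tested had a log2 fold change above 0 in BY4741 and 6 in BY4741(*yrr1*Δ). Of 14 genes tested in BY4741 edgeR called only *DLD3*, a cytosolic D-lactate dehydrogenase gene, beside 3.14% of all genes, and it rose by 0.89 (SE 0.17, FDR = 0.0290, edgeR). *CYB2* and *DLD1*, the mitochondrial L- and D-lactate dehydrogenase genes, were at -0.72 (SE 0.31, FDR = 0.255, edgeR) and -0.25 (SE 0.20, FDR = 0.520, edgeR) in BY4741, where *JEN1* rose. In BY4741(*yrr1*Δ) edgeR called 2 of the 14 as higher and 3 as lower, beside the background of 11.2% called. The unadjusted p was under 0.05 for 4 of the 14 in BY4741, against 18.3% of all genes. In BY4741(*yrr1*Δ) it was for 8, against 29.0%. *CYB2* fell by 2.01 (SE 0.32, FDR = 0.00732, edgeR), *DLD1* by 0.86 (SE 0.20, FDR = 0.0282, edgeR) and *ACS1*, an acetyl-CoA synthetase gene, by 0.90 (SE 0.22, FDR = 0.0331, edgeR). *ADR1*, an activator of genes for nonfermentable carbon, rose by 1.32 (SE 0.26, FDR = 0.0143, edgeR) and *DLD3* by 1.06 (SE 0.17, FDR = 0.00736, edgeR). The medians of the 14 genes in BY4741 and BY4741(*yrr1*Δ) were 0.45 and -0.11, beside -0.02 and 0.01 for all genes.

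The lactate dehydrogenase *CYB2* had 141 and 77.1 CPM in BY4741 in SD and 61.8 and 70.4 with vanillin, and 93.4 and 138 CPM in BY4741(*yrr1*Δ) in SD and 31.5 and 25.8 with vanillin. Its lowest libraries were thus those of the deletion strain with vanillin. The interaction for *CYB2* was -1.29 (SE 0.44, FDR = 0.165, edgeR).

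Genes of flavin synthesis, beside the riboflavin importer *MCH5*, gave no call among 9 in BY4741 by edgeR or DESeq2, with 2 of 9 at an unadjusted p under 0.05 by edgeR, against 18.3% of all genes. In BY4741(*yrr1*Δ) *RIB5*, the riboflavin synthase gene, fell by 0.95 (SE 0.18, FDR = 0.0121, edgeR) and *FMN1*, the riboflavin kinase gene, by 0.84 (SE 0.23, FDR = 0.0481, edgeR), so that 2 of 9 were called beside 11.2% of all genes. DESeq2 called *RIB5* alone, and the call of *FMN1* was kept in 2 of 9 other settings and in none of the 8 fits with a library left out. *RIB5* had 163 and 146 CPM in BY4741(*yrr1*Δ) with vanillin and 245 to 306 CPM in the other 6 libraries. The medians of the 9 were 0.06 and -0.07.

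Of the 4 genes for proline use and its regulator Put3p, *PUT1*, the proline oxidase gene, rose in BY4741 by 0.95 (SE 0.20, FDR = 0.0360, edgeR). It was the 1 gene of 4 called there, beside 3.14% of all genes, and its call was kept in 4 of 9 other settings and lost by DESeq2 (FDR = 0.0681), which called none of the 4. *PUT2*, the next enzyme gene of the pathway and also a Put3p target, was at -0.25 in BY4741 (SE 0.22, FDR = 0.570, edgeR) and -0.50 in BY4741(*yrr1*Δ) (SE 0.22, FDR = 0.167, edgeR). *PUT4*, the proline permease gene, fell by 2.69 in BY4741(*yrr1*Δ) (SE 0.67, FDR = 0.0353, edgeR), from 47 and 15 counts in SD to 7 and 4. Without replicate 1 in SD, the library with 47 counts, it was at -1.53 (FDR = 0.170, edgeR). The medians of the 4 were 0.33 and -0.06.

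Between the strains, in either medium, and for the interaction, edgeR called no gene of these 4 lists. In SD none of their genes had an unadjusted p under 0.05 by edgeR and DESeq2 called none. With vanillin 3 carriers, 3 lactate, 2 flavin and 3 proline genes had an unadjusted p under 0.05, against 22.9% of all genes, and DESeq2 called 2, 1, 1 and 0 genes of these lists, against 4.72% of all genes. For the interaction the numbers were 3, 4, 3 and 1, against 20.5% of all genes, and DESeq2 called 2 carriers and no gene of the other lists, against 3.92% of all genes. Of the calls named from these lists, those of *PDR12* and *DLD3* in BY4741(*yrr1*Δ) and of *AQR1* in BY4741 held when each library was left out in turn, and each of the others was lost in 1 to 8 of the 8 such fits. Among the other 9 settings, *ACS1* was kept in 4.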

How the data were processed

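Per the labels, reads were set against build R64, and the authors deposited 1 table per library with an expected count, which is an estimate without normalization, and an FPKM for every gene. The aligner and counting tool are not given in the sources used here. The comparison tables hold the authors' own fold changes and were not used, and their headers name 6 mM vanillin where the labels and methods give 5 mM. Expected counts were rounded and analysed with edgeR 4.0.16 in R 4.3.3 (filterByExpr, TMM, 1 quasi-likelihood model of the 4 conditions), and adjusted p-values are Benjamini-Hochberg FDRs over the 5506 genes tested. On simulated data for vanillin in BY4741, 34% of 2-fold and 93% of 4-fold changes were recovered among 5506 genes at an FDR of 0.05, with 8.63% false calls. Replicates differed by more than counting error (chi-square per degree of freedom 6.80 to 19.0), so neither library of a pair was a copy of the other. This does not show whether they came from separate cultures.

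The genes named are the 6 homologues, up to 4 called genes per list and comparison, *CYB2*, *DLD1*, *PUT1* and *PUT2*, the 2 annotated genes on each side of *MCH2* and *JEN1*, and the 3 genes nearest in pattern. The homologues and lists were chosen with earlier results of these data known. Alternatives were DESeq2 1.42.0, its size factors in edgeR, library size alone, 2 other filters, limma 3.58.1 on log2(FPKM + 1) and log2(FPKM + 0.1), a model of only the 4 libraries compared, the replicate number as a block, and each library left out in turn. Proteins were translated from R64 and aligned globally with Biopython 1.88 (gap opening 10, extension 0.5, end gaps free).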

Additional observations from a re-analysis of the deposited data

How the results depend on the processing

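The count of relatives called with vanillin in BY4741 was 2, and 1 with no filter on low counts. DESeq2 called 1 relative at a fold of 2 and an FDR of 0.001, limits at which its share of all genes was not counted. Between the strains with vanillin the log2 fold change of *MCH2* was 1.47 with library size alone, 1.33 by DESeq2 and 1.36 with only the 4 samples compared. It is given with no test, since these libraries chose *MCH2*. Those settings called 32, 260 and 317 genes in all, against 34. Every other count of relatives called stayed at 0 under all alternatives. All genes called with vanillin ran from 32 to 290 in BY4741 and from 194 to 689 in BY4741(*yrr1*Δ), and from 1 to 317 between the strains with vanillin. For the interaction they ran from 0 to 216. The cause of these changes was not tested.

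Samples with the same replicate number did not deviate in the same direction. Between the strains in SD they deviated in opposite directions, with a correlation of replicate differences of -0.58, which the main model does not include. The correlation was -0.09 to 0.18 for the other pairs of conditions. With the replicate block 1 relative was called in BY4741, the FDR of *MCH5* became 0.0875 (edgeR), and the block left all other counts of homologues called as they were. All genes called fell to 99 in BY4741, 400 in BY4741(*yrr1*Δ) and 12 between the strains with vanillin. A crossed pairing of the 4 SD libraries, chosen after seeing the data, called 75 genes and 0 homologues between the strains, where the main model called 1 gene.

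Small changes that passed no test turned in sign. For library size alone, log2(FPKM + 1) and log2(FPKM + 0.1) in turn, *MCH1* became -0.049, -0.057 and -0.058 between the strains in SD, 0.098, 0.081 and 0.082 between them with vanillin, and 0.15, 0.14 and 0.14 for the interaction. *MCH4* became -0.070, -0.066 and -0.067 between the strains in SD. *ESBP6* in BY4741(*yrr1*Δ) became -0.0055 with DESeq2's size factors, -0.0055 by DESeq2, -6.5e-05 with no filter, -0.0081 with only the 4 samples and -0.0071 with the replicate block. With each library left out, *MCH1* ran from -0.30 to 0.33 in BY4741(*yrr1*Δ), from -0.079 to 0.098 between the strains in SD, from -0.40 to 0.23 between them with vanillin and from -0.41 to 0.22 for the interaction. *MCH4* ran from -0.19 to 0.41 in BY4741 and from -0.16 to 0.17 between the strains in SD, *MCH5* from -0.034 to 0.80 between the strains in SD, and *ESBP6* from -0.29 to 0.24 in BY4741(*yrr1*Δ).

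The log2 fold change of *MCH2* with vanillin ran from 5.27, on log2(FPKM + 1), to 5.96 in BY4741 and from 6.34 to 7.04 in BY4741(*yrr1*Δ). Its 10 to 15 counts in SD limit how well that fold is known.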
